A study of Mus musculus with 16 samples.

Results

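Among the ATRX-dependent HNDs of mouse ESCs, 244 were CpG-rich. HNDs (heterochromatin nanodomains) are short stretches of chromatin marked by H3K9me3. Those taken as ATRX-dependent had a called H3K9me3 peak in WT cells and none in *Atrx* KO cells. The lack of a called peak does not show that the mark was fully lost. The CpG-rich HNDs were chosen from the DNA sequence alone. They lay on chromosomes 1 to 19, were at least 200 bp wide, and had an observed/expected CpG ratio of 0.6 or more in mm9. The ratio is the number of CpG dinucleotides times the length, divided by the product of the numbers of C and G, and it is 1 where CpG is as frequent as the base composition alone would give. The list held 13113 HNDs, of which 9463 were on these chromosomes and at least 200 bp wide, so that 2.58% of these met the rule (95% Wilson interval 2.28 to 2.92%).

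WT cells of the line wt26 were compared with *Atrx* KO cells of the clones KO1-40 and KO1-45, all ESCs grown in culture, with no treatment named in the labels. For H3K9me3, histone H3, an IgG control and input DNA there were 2 WT and 2 KO libraries each, which makes 16 ChIP-seq libraries. Per the methods the WT libraries are repeats of 1 line and each KO clone gave 1 library, and the labels do not say which KO library belongs to which clone. The list is 1 pooled set of positions without heights, counts or depth, so the loss of *Atrx* itself could not be checked in it, no spread between libraries can be given, and intervals below cover counting error only.

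In mammalian DNA most CpG cytosines are methylated and CpG has become rare over time. CpG islands, many of them at the starts of genes, are the well-known exception and are mostly free of both DNA methylation and H3K9me3. ATRX is a chromatin remodeller that works with the histone chaperone DAXX and the histone variant H3.3 at repeats and other heterochromatin. In ESCs, H3K9me3 is best known at retrotransposons and other repeats, and a small number of CpG-rich germline gene promoters are also silenced there.

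Sequences of CpG-rich HNDs are printed from the plus strand of mm9 in lower case with each CpG in capitals. The first 3 are the HNDs that share sequence with the most others in the largest groups of related CpG-rich HNDs, called families 1, 2 and 3 in order of size. The fourth is from family 5, made of short tandem repeats. Where an HND was longer than 300 bp, the 300 bp with the most CpG were taken.
Family 1, chr2:40345765-40346004: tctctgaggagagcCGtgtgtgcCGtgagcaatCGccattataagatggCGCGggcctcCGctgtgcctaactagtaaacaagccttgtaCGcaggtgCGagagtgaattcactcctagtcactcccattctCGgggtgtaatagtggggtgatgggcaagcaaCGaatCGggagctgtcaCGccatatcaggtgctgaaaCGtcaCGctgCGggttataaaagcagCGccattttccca
Family 2, chr7:17032901-17033200: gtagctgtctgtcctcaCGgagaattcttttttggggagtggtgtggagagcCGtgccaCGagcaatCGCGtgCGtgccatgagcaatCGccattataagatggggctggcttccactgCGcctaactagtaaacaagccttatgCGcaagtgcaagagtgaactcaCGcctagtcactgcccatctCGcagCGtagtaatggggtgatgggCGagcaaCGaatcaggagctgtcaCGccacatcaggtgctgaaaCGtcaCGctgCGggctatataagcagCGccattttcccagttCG
Family 3, chr7:60614341-60614602: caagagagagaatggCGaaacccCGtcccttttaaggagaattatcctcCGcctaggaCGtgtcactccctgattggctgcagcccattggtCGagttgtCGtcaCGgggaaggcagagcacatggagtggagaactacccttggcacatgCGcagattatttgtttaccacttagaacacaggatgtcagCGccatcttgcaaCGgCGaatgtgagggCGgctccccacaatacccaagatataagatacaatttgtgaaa
Family 5, chr3:73147811-73148060: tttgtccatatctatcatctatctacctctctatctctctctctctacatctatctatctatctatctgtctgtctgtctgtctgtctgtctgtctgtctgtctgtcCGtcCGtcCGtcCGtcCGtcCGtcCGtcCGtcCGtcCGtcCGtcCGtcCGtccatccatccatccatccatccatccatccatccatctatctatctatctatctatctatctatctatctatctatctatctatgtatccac
The stretches of families 1, 2 and 3 held 16, 20 and 12 CpG spread along their length, whereas the 13 CpG of the fourth stood in a single run of a repeated unit. The family 1 HND lay between genes, had a ratio of 0.914 over its 240 bp, and held a 24-base word with 987 copies in mm9.

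CpG-rich HNDs near the starts of *Dazl*, *Tex12*, *Sox30*, *Mov10l1* and *Sycp1* are shown for comparison. All of their 50-base words occur once in mm9, which also holds for the HND at *1190002H23Rik*, and these 5 were picked after the genes' names were seen. They are printed from the plus strand in the same way, whichever strand the gene is on.
Dazl, chr17:50432780-50433079: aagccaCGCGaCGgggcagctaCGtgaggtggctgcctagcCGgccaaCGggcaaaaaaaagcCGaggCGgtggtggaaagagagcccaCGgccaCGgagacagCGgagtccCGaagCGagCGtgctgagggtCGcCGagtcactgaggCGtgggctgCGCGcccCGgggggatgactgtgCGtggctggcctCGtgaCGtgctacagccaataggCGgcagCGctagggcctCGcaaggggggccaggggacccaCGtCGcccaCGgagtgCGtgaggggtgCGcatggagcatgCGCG
Tex12, chr9:50369178-50369477: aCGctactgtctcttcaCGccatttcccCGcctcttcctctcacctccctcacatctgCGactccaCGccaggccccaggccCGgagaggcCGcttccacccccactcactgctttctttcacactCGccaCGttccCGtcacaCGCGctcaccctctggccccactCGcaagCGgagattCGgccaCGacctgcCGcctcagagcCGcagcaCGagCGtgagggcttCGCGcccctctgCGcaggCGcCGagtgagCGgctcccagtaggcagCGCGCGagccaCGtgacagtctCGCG
Sox30, chr11:45793381-45793639: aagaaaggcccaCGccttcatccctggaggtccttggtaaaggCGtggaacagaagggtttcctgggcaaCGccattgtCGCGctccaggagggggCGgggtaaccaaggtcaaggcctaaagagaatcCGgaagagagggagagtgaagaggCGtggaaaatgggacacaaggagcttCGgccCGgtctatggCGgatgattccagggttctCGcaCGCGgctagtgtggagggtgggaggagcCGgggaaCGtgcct
Mov10l1, chr15:88813087-88813386: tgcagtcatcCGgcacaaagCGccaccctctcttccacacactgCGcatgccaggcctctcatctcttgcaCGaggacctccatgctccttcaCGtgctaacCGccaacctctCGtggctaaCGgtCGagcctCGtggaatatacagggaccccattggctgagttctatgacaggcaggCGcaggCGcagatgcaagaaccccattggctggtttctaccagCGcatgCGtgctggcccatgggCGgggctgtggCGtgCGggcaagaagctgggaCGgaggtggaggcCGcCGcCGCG
Sycp1, chr3:102739050-102739349: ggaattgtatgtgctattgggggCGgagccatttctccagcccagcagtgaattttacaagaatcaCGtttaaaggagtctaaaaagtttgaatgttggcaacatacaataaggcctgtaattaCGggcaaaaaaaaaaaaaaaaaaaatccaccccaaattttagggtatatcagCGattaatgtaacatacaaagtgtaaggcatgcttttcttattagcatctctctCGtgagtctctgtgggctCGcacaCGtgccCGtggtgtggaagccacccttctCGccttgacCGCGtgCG
The stretches at *Dazl* and *Tex12* were the densest of these, with 33 and 32 CpG, followed by *Mov10l1* with 22, *Sox30* with 16 and *Sycp1* with 12.

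To ask whether ATRX-dependent HNDs contain CpG-rich DNA more often than the genome around them, 1000 sets of random regions were drawn, each region with the width and chromosome of 1 HND. In the random sets 126 ± 11.0 regions (mean ± SD of 1000 sets), or 1.33 ± 0.116%, met the rule. The share among HNDs was 1.94 times as high, and the highest share of any random set was 1.70%. Of the CpG-rich HNDs, 42.2% belonged to the 3 largest families of related sequence described below, so they are not independent cases. Regions of the same width 20 kb to either side of each HND gave 1.08% of 18881. The whole distribution of the ratio was shifted, with a median of 0.191 over 9448 HNDs and 0.158 over random regions. For 15 HNDs the ratio was not defined because C or G was missing.

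**Figure D1:**
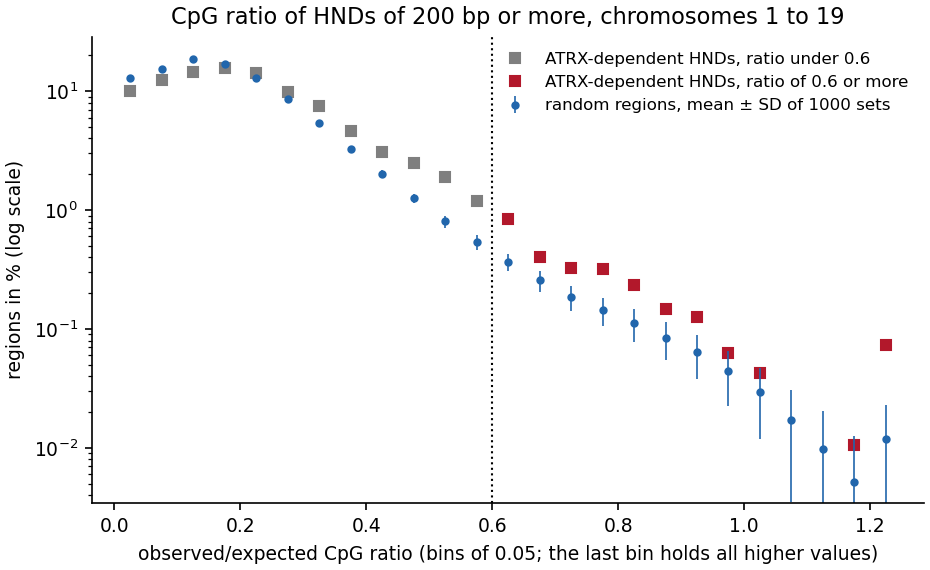
Share of regions of 200 bp or more on chromosomes 1 to 19 (y axis, percent, log scale) by observed/expected CpG ratio (x axis), for ATRX-dependent HNDs (squares) and random regions of the same widths (circles, mean ± SD of 1000 sets). The dotted line marks the ratio of 0.6, bins without an HND have no square, and at this ratio and above the 244 HNDs compare with 126 ± 11.0 random regions.

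The share of CpG-rich regions was above that of random regions in narrow HNDs and close to it in wide ones. Of the 4443 HNDs under 500 bp, 193 or 4.34% were CpG-rich (95% Wilson interval 3.78 to 4.98%), against 1.78 ± 0.197% of random regions of these widths. Of the 5020 HNDs of 500 bp or more, 51 or 1.02% were CpG-rich (interval 0.774 to 1.33%), and here random regions gave 0.936 ± 0.130%, which is inside that interval. From 200 bp to under 300 bp the share reached 5.83% of 1954 HNDs. At 1000 bp or more it was 0.682% of 1907 HNDs, against 0.792 ± 0.196% in random regions.

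**Figure D2:**
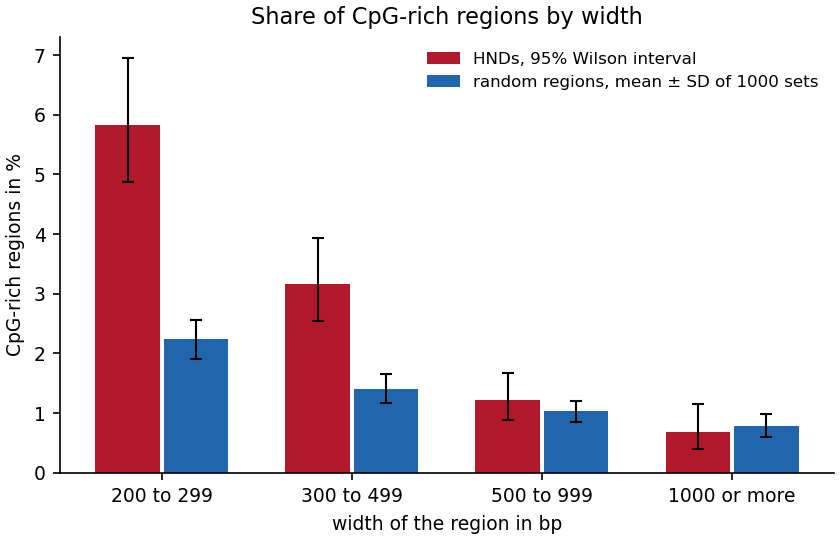
Share of CpG-rich regions in percent (y axis) by width in bp (x axis), for ATRX-dependent HNDs (red, 95% Wilson interval) and random regions of the same widths (blue, mean ± SD of 1000 sets). The HNDs stand above random regions in both classes under 500 bp, with 5.83% in the narrowest class, and the random mean is inside the interval of the HNDs in both classes of 500 bp or more.

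CpG-rich HNDs had a median width of 313 bp (quartiles 258 and 455 bp) and the other HNDs one of 539 bp. Averaged over the 19 chromosomes, the median width was 336 ± 66.1 bp (mean ± SD, n = 19 chromosomes) in CpG-rich and 539 ± 39.4 bp in other HNDs. CpG-rich HNDs were narrower on 18 of 19 chromosomes. The rule sets a lower limit on width and the ratio contains the length, so these widths are a description without a test. CpG-rich random regions, drawn with the widths of all HNDs, had a median of 388 bp and so were also narrower than the other HNDs. Among HNDs of 200 to 500 bp only, an alternative chosen after the data were seen, the difference in median width was -25.2 bp.

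The CpG-rich HNDs were only moderately G+C-rich. They covered 103282 bp with 4747 CpG, or 4.60 CpG per 100 bp against 1.06 in the other HNDs. The median HND had 14.5 CpG (quartiles 11.0 and 20.0), compared with 21.0 in CpG-rich random regions. Median G+C was 50.8% (quartiles 48.1 and 52.9%), with 45.2% in the other HNDs and 51.8% in CpG-rich random regions. The quartiles of the CpG-rich random regions were further apart, at 44.3 and 61.8%. G+C of 55% or more was found in 22 CpG-rich HNDs, or 9.02% (interval 6.03 to 13.3%), against 40.7 ± 4.37% of CpG-rich random regions. Since the rule uses the numbers of C and G, these values are a description without a test. With a stricter definition of a CpG island, G+C of 55% or more, a ratio of 0.65 or more and at least 500 bp, 9 HNDs remained.

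The CpG ratio of CpG-rich HNDs fell off over a shorter distance than that of CpG-rich random regions. The pooled ratio was 0.735 in the 100 bp before the centre and fell to 0.248 at 550 bp downstream. In CpG-rich random regions it was 0.801 and 0.524 at the same distances, and in other HNDs it was 0.214 and 0.187. A flank of the same width with a ratio of 0.6 or more was found beside 36 CpG-rich HNDs, or 14.8% (interval 10.9 to 19.7%), and beside 42.8% of CpG-rich random regions. CpG-rich random regions were wider, with the median of 388 bp given above, and the part of width in this contrast was not tested.

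**Figure D3:**
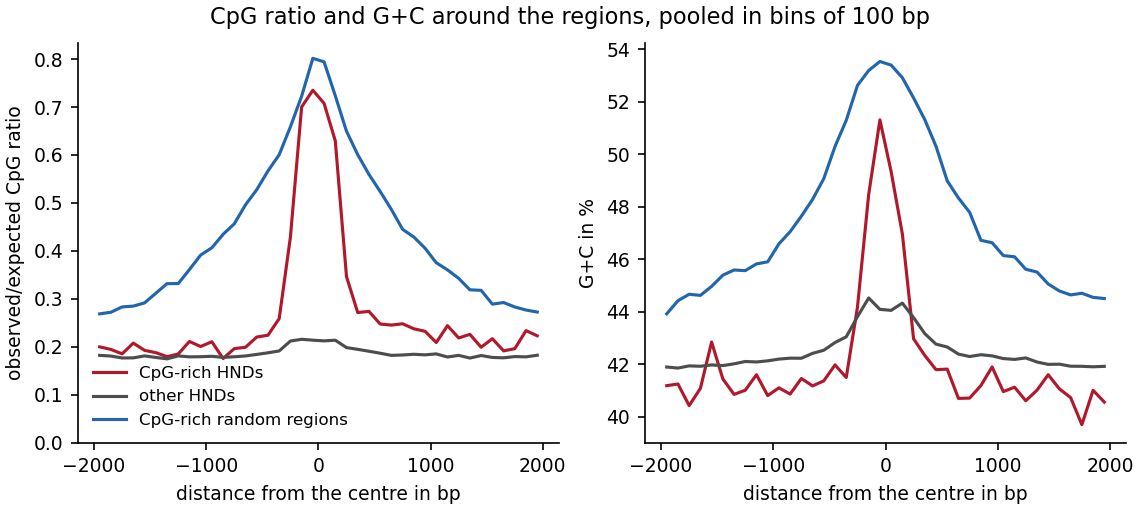
Observed/expected CpG ratio (left) and G+C in percent (right) by distance from the centre in bp, pooled over regions in bins of 100 bp, for 244 CpG-rich HNDs (red), other HNDs (grey) and 2511 CpG-rich random regions from 20 sets (blue). The ratio of CpG-rich HNDs is back to 0.248 at 550 bp downstream, where CpG-rich random regions are at 0.524.

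The CpG-rich HNDs were found on all 19 chromosomes. Chromosome 3 held the most, 30 of its 551 HNDs or 5.44% (interval 3.84 to 7.67%), followed by 4.01% on chromosome 2, 3.99% on chromosome 10 and 3.91% on chromosome 17. The lowest shares were 1.04% on chromosome 1 and 1.52% on chromosome 11, the 2 chromosomes where random regions gave as much or more, 1.07 and 1.59%. The share was above that of random regions on 17 of 19 chromosomes, and on 11 the whole interval was. HNDs of 1 chromosome are not independent repeats, and since related sequences recur on different chromosomes, as described below, tests over chromosomes do not rest on independent sequences either. Another HND lay within 10 kb of 18.9% of CpG-rich HNDs (interval 14.4 to 24.2%) and of 19.8% of the other HNDs.

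Most CpG-rich HNDs held at least 1 short word that occurs many times in mm9. Of the 244, 202 held a 24-base word with at least 100 copies, counted exactly on both strands and leaving out simple tandem words. That was 82.8% (interval 77.6 to 87.0%), where 72.7% of all HNDs of 200 bp or more did so. In the other HNDs it was 72.4% and in CpG-rich random regions 36.6% (interval 34.7 to 38.5%, n = 2511). Averaged over chromosomes the shares were 83.3 ± 9.91% and 73.0 ± 4.08% for CpG-rich and other HNDs (n = 19), higher in CpG-rich HNDs on 14 of 19 (exact two-sided sign-flip permutation over chromosomes, p = 5.76e-04, Benjamini-Hochberg adjusted over 5 tests 9.60e-04). The smallest p this test can give is 3.81e-06. The excess over other HNDs was 10.3 percentage points. It was no longer past the threshold at a CpG ratio of 0.65 or more (6.81 points, exact p = 0.0792) or 0.75 or more (2.94 points, exact p = 0.573), and it turned to -5.65 points with at least 1000 copies (exact p = 0.108). Without the 3 largest families, whose 103 HNDs all hold a multi-copy word, it turned to -3.04 points (exact p = 0.471), an alternative chosen after the data were seen that lowers the value by construction. With words of 36 bases it was 23.2 points (exact p = 1.14e-05), and among HNDs of 200 to 500 bp, an alternative chosen after the data were seen, 18.9 points (exact p = 2.67e-05).

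The repeats of CpG-rich HNDs were of intermediate copy number. The most frequent word had a median of 987 copies (quartiles 514 and 4217), compared with 804 copies in the other HNDs, where the quartiles were 57.0 and 11945. The median word within an HND had 25.0 copies in the median CpG-rich HND and 1.00 in the median other HND.

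Reads of 50 bp were kept by the authors only where they mapped to 1 place. The fraction of 50-base words with a single place in mm9 gives the share of such read positions wholly inside an HND. Reads reaching in from the flanks are not counted in it. In CpG-rich HNDs 54.6% of 91177 words occurred once, in the other HNDs 75.2% and in CpG-rich random regions 82.8%. Averaged over chromosomes the shares were 53.8 ± 13.3% and 74.5 ± 5.80% (n = 19), lower in CpG-rich HNDs on 18 of 19 (exact two-sided sign-flip permutation, p = 7.63e-06, adjusted 1.91e-05). Without any such word were 11 CpG-rich HNDs, or 4.51% (interval 2.54 to 7.89%), and 7.55% of the other HNDs. With 150 bp added on each side this number fell to 5 CpG-rich HNDs. The family 1 HND printed above is one of the 11 and has such a word within 150 bp. Words were matched exactly, whereas up to 2 mismatches were allowed in mapping, so a word counted here as found once may have a near copy elsewhere.

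Words of 24 bases were then compared between CpG-rich HNDs, joining those that shared at least 20% of the words of the shorter one. This gave 22 families with 174 CpG-rich HNDs, or 71.3%, and left 70 alone. Families 1, 2 and 3 held 38, 33 and 32 HNDs on 16, 17 and 15 chromosomes, together 42.2% of all. Of these 103 HNDs none overlapped a promoter and 18 lay in a gene. No repeat annotation was used here, so the families carry no repeat names.

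The HNDs of families 1, 2 and 3 were alike in size and composition. Their median widths were 326, 286 and 286 bp and their median ratios 0.762, 0.708 and 0.690. Median G+C was 52.1, 51.5 and 50.9%, with a median of 18, 14 and 13 CpG per HND. Families 1 and 2 shared at least 1 word in 759 of 1254 pairs, and family 3 shared one with either of them in 230 of 2272. When 10% of shared words sufficed, all 103 fell into a single group of 112.

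The most widespread word of families 1 and 2 is part of the first sequence printed above, and that of family 3 is part of the third.
Families 1 and 2: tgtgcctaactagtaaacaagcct
Family 3: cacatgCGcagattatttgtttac
The first occurred in 35 of the 71 HNDs of families 1 and 2 and has 942 copies in mm9, and the second in 18 of 32 HNDs of family 3 with 4585 copies. HNDs of 200 bp or more on chromosomes 1 to 19 held the first word in 64 cases and the second in 58, so most copies of either word lay outside the list. Of the HNDs with these words 28 and 37 were not CpG-rich, with median ratios of 0.510 and 0.457. Relatives under the ratio of 0.6 were also found by the rule of 20% shared words. There were 18, 28 and 77 for families 1, 2 and 3, with median ratios of 0.533, 0.527 and 0.467. The ratio of 0.6 thus cut through these groups of related HNDs.

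Smaller families differed more. Family 4, with 12 HNDs, was the largest of them and had a median ratio of 0.638. Family 7 held 5 wide HNDs of 876 to 1772 bp with a median of 57.0 CpG and only 7.92% of 50-base words found once. Family 9 held 4 HNDs with a median ratio of 0.994, among them chr6:44742968-44743292, with 24 CpG in 325 bp and words of low copy number (median 11.0). Family 5, with 9 HNDs, and family 6, with 7, contained short tandem repeats with units of at most 6 bases, which made up a median of 28.9 and 48.7% of their words.

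A high ratio did not always mean many CpG. The highest value, 1.81, belonged to chr2:30890428-30891072 in an intron of *Fnbp1*, which codes for a protein of membrane bending, and rested on 6 CpG among 9 C and 238 G. The second, 1.73 at chr9:60387175-60387625, had 26 G beside 191 C. The third was the printed HND of family 5, 1.44 with 25 G and 90 C. In 13 CpG-rich HNDs, or 5.33%, C or G made up under 10% of the bases, and these included all 7 HNDs of family 6, whose median number of CpG was 1.00. Without counting such regions, a choice made after the data were seen, the share of CpG-rich HNDs was 2.44% against 1.30 ± 0.116% in random regions.

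The HNDs just inside the ratio were chr4:35944676-35944927 in an intron of *Lingo2* with exactly 0.6, chr14:27058073-27058623 between genes with 0.6013, and chr17:85797367-85797649 in an intron of *1700106N22Rik* with 0.6018. Just outside were chr15:24512430-24512656 with 0.5991, chr2:11484813-11485219 with 0.5990 and an HND of 219 bp with 0.5988, all between genes. Both sides held HNDs with a 24-base word of over 100 copies.

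The widest CpG-rich HNDs were neighbours on chromosome 17. The HND at chr17:39982985-39985561 was 2577 bp wide, with 236 CpG, a ratio of 1.03 and 59.8% G+C, and overlapped an exon of *AY036118*, annotated as a pseudogene. That at chr17:39979987-39982280 was 2294 bp wide, with 238 CpG, a ratio of 0.907 and 67.8% G+C, and overlapped no gene. As background, this stretch of the assembly carries ribosomal RNA sequence, of which the mouse genome has many more copies than mm9 holds, so copy numbers in mm9 are too low here. The 300 bp with the most CpG, 43 in number, are printed from the plus strand.
AY036118, chr17:39985199-39985498: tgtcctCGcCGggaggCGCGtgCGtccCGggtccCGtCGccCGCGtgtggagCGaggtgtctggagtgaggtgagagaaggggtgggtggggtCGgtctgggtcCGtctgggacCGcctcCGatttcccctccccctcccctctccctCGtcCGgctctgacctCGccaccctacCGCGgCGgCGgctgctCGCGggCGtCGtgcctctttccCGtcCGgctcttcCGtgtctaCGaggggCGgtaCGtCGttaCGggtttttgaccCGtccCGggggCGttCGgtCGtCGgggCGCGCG
1 other CpG-rich HND shared words with the pair, the 295 bp at chr16:18533211-18533505 with a ratio of 0.609, in which 117 of 272 words were found in the chromosome 17 stretch.

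CpG islands are typical of gene starts, so overlap with promoters, defined as sequence within 1 kb of a GENCODE M1 gene start, was counted next. Of the 244 CpG-rich HNDs, 19 lay at a promoter, or 7.79% (interval 5.04 to 11.8%), where 3.03% of all HNDs of 200 bp or more did. The other HNDs gave 2.91% (interval 2.58 to 3.27%) and CpG-rich random regions 39.2 ± 4.35%. Random regions that were not CpG-rich gave 3.15%, so the CpG rule by itself picks promoters, whether or not a region is an HND. A higher share in CpG-rich than in other HNDs therefore follows from the rule. The test of it below cannot show a preference of HNDs for promoters. Averaged over chromosomes the shares of CpG-rich and other HNDs were 7.70 ± 8.10% and 2.71 ± 1.54% (n = 19). This was a difference of 4.99 percentage points with the higher share in CpG-rich HNDs on 12 of 19 (exact two-sided sign-flip permutation, p = 0.0119, adjusted 0.0149). The difference was no longer past the threshold among HNDs of 500 bp or more (10.3 points, exact p = 0.0661) or, in an alternative chosen after the data were seen, among those of 200 to 500 bp (3.09 points, exact p = 0.104). Without the 3 largest families of related HNDs, also left out after the data were seen, it was 13.1 points (exact p = 0.00174). None of the 103 HNDs of these families lay at a promoter, so leaving them out raises the difference by construction. For promoters of protein-coding genes the count was 13, or 5.33%, against 1.30% of the other HNDs and 36.3 ± 4.30% of CpG-rich random regions.

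Genes were overlapped by 64 CpG-rich HNDs, or 26.2% (interval 21.1 to 32.1%), where 31.5% of all HNDs of 200 bp or more overlapped one. The other HNDs gave 31.6% and CpG-rich random regions 63.5 ± 4.26%. Averaged over chromosomes the shares of CpG-rich and other HNDs were 27.3 ± 11.0% and 31.3 ± 3.76% (n = 19), a difference that did not pass the test (exact two-sided sign-flip permutation, p = 0.135, adjusted 0.135). Leaving out chromosome 12 brought it to -5.32 points (exact p = 0.0307). Leaving out the 3 largest families, chosen after the data were seen, turned it to 3.89 points (exact p = 0.531), and 18 of their 103 HNDs lay in a gene. Exons were touched by 21 CpG-rich HNDs, or 8.61% (interval 5.70 to 12.8%). The other HNDs gave 5.30% here and CpG-rich random regions 41.7 ± 4.47%, and these shares were not tested. Another 43 CpG-rich HNDs lay in introns and 180 between genes. The median distance to the nearest gene start was 43.8 kb for CpG-rich and 38.0 kb for other HNDs.

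**Figure D4:**
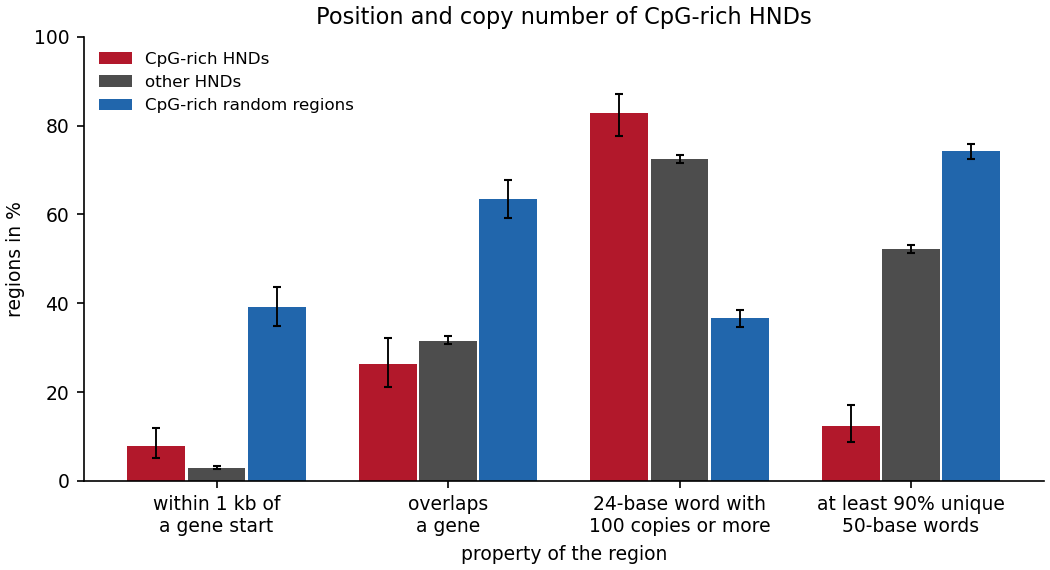
Share of regions in percent (y axis) at a promoter, in a gene, with a multi-copy word, and with at least 90% of 50-base words found once (x axis), for CpG-rich HNDs (red), other HNDs (grey) and CpG-rich random regions (blue). Error bars are 95% Wilson intervals, except mean ± SD of 1000 random sets for promoters and genes. CpG-rich HNDs stand far below CpG-rich random regions at promoters, 7.79 against 39.2%, and above them for multi-copy words, 82.8 against 36.6%.

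Among CpG-rich HNDs, the promoter share was lower in those with a multi-copy word than in those with mostly unique 50-base words or in neither class. In 30 CpG-rich HNDs, or 12.3%, at least 90% of the 50-base words occurred once, compared with 52.2% of other HNDs and 74.2% of CpG-rich random regions. Of these 30, 9 lay at a promoter, or 30.0% (interval 16.7 to 47.9%). Of the 202 with a multi-copy word, 6 did, or 2.97% (interval 1.37 to 6.33%), and 9 HNDs belonged to both classes. Another 21 belonged to neither class, and 5 of these lay at a promoter, or 23.8% (interval 10.6 to 45.1%). In the other HNDs the promoter shares were 2.99% with mostly unique words and 2.56% with a multi-copy word. In CpG-rich random regions they were 48.9 and 20.8%. These shares are given without a test.

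The 13 protein-coding genes with a CpG-rich HND at the promoter included *Dazl*, *Mov10l1* and *Sycp1*, which are in the germline list compared below, and *Tex12* and *Sox30*, which are not. At *Dazl* (ENSMUSG00000010592.7), an RNA-binding protein of germ cells, the HND at chr17:50432595-50433791 was 1197 bp wide with 77 CpG and a ratio of 0.759. It ran from 867 bp upstream of the gene start to 329 bp downstream. At *Tex12* (ENSMUSG00000032065.5), a protein of the synaptonemal complex, the HND at chr9:50369128-50369721 was 594 bp wide with 43 CpG and a ratio of 0.786. It covered the gene start as well, from 348 bp upstream to 245 bp downstream.

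At *Mov10l1* (ENSMUSG00000015365.8), a helicase needed to make piRNAs, the HND at chr15:88812949-88813498 had 30 CpG in 550 bp and a ratio of 0.637, and covered the gene start. At *Sox30* (ENSMUSG00000040489.5), a transcription factor of sperm formation, the HND at chr11:45793381-45793639 had 16 CpG in 259 bp and a ratio of 0.740, and ended 173 bp upstream of the gene start. At *Sycp1* (ENSMUSG00000027855.8), another protein of the synaptonemal complex, the HND at chr3:102739020-102739350 had 13 CpG in 331 bp and a ratio of 0.808. It lay in an intron, from 673 to 1003 bp downstream of the gene start. In all 5 HNDs every 50-base word occurred once in mm9. That at *Sycp1* nevertheless held a 24-base word with 309 copies and so is also among the HNDs with a multi-copy word, whereas no 24-base word of the other 4 had a second copy. G+C of the 5 HNDs was highest at *Tex12* with 61.3% and lowest at *Sycp1* with 44.1%.

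**Figure D5:**
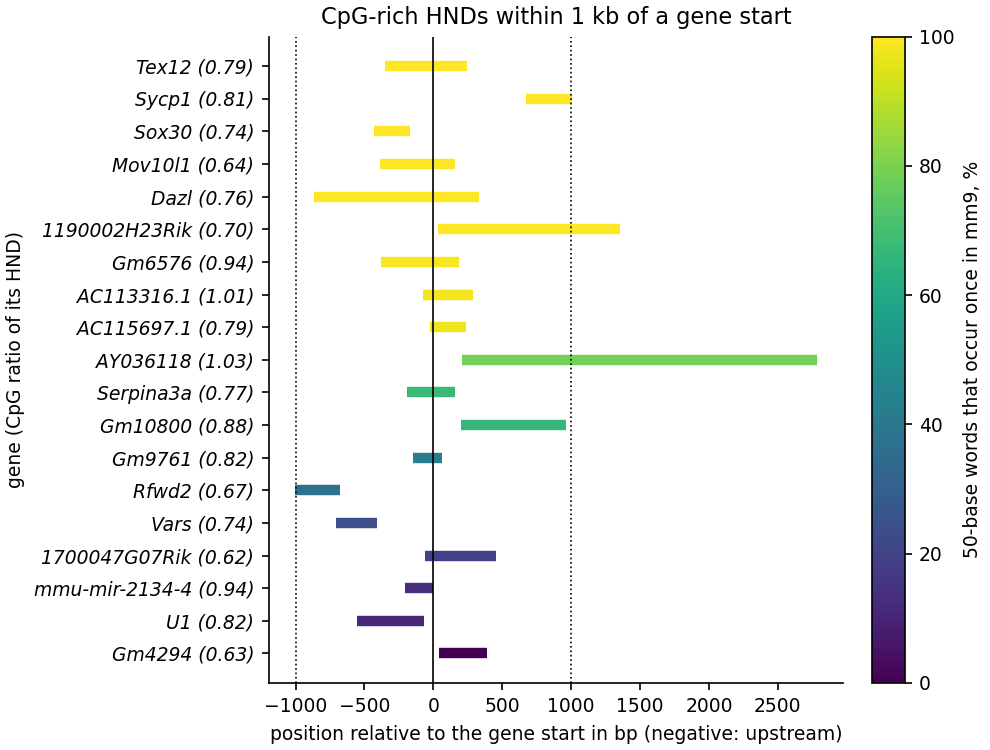
Position of the 19 CpG-rich HNDs within 1 kb of a gene start (bars) relative to that start in bp (x axis, upstream negative) for each gene (y axis, with the CpG ratio of the HND in brackets), coloured by the percentage of 50-base words found once in mm9. The HND at *Dazl* reaches from 867 bp upstream to 329 bp downstream, and no 50-base word of the HNDs at *Dazl*, *Tex12*, *Sox30*, *Mov10l1* and *Sycp1* is found more than once.

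Of the other 8 protein-coding genes, *1190002H23Rik*, a regulator of the cell cycle now named *Rgcc*, had the widest HND, 1319 bp with 82 CpG, a ratio of 0.702 and 60 copies of its most frequent word, starting 37 bp downstream of the gene start. *Gm6576* had an HND of 563 bp with a ratio of 0.935 over its start. All 50-base words of the first and 99.2% of those of the second occurred once. The remaining 6 HNDs contained more repeated sequence. At *Serpina3a*, of the serine protease inhibitor family, 67.6% of the words occurred once, at *Gm10800* 66.6%, at *Rfwd2*, the ubiquitin ligase COP1, 37.0%, at *Vars*, the valyl-tRNA synthetase, 23.9%, at *1700047G07Rik* 19.8%, and at *Gm4294* 0. As background, *Gm4294* and *Gm6576* are listed as pseudogenes in RefSeq. GENCODE M1 has them as protein-coding, and they are counted so here.

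The other 6 HNDs at promoters were at genes without a protein, namely the snRNA gene *U1*, the pseudogenes *Gm9761* and *AY036118*, and the annotated miRNAs *AC113316.1*, *AC115697.1* and *mmu-mir-2134-4*. The HND at *AC113316.1*, chr5:147072506-147072868, lies within *Cdk8* and had 28 CpG and a ratio of 1.01. That at *AC115697.1*, chr7:137977930-137978185, lies within *Fgfr2* and had 17 CpG and a ratio of 0.793. Over all 19, 9 HNDs covered a gene start.

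Gene lists were compared by promoter and by gene body. Among 35 germline genes, a CpG-rich HND lay at the promoter of 3, *Dazl*, *Mov10l1* and *Sycp1*, whereas 0.0607% of 21418 protein-coding genes, 13 in number, had one. *Tex12* and *Sox30* are not in that list. An HND of any CpG ratio lay at the promoter or in the body of 9 of the 35, where this held for 6.80% of all 34653 genes, without regard to gene length. Of the 9 genes, *Ddx4*, an RNA helicase of germ cells, had an HND at its promoter with a ratio of 0.357 and 15 CpG in 655 bp. *Rpl10l*, a ribosomal protein of the testis, had one with 0.402. The list was chosen with earlier results of these data known, so these counts are a description.

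A CpG-rich HND at the promoter or in the body was found for 74 of all 34653 genes, or 0.214%. None of the 55 imprinted genes, 393 zinc finger genes, 42 *Hox* genes, 75 genes of ribosomal proteins and 1569 olfactory and vomeronasal receptor genes had one. HNDs of any ratio, present at 6.80% of all genes, were found at 10 imprinted genes or 18.2%, among them *Gnas*, *Grb10* and *Snrpn*, and at 46 zinc finger genes or 11.7%. They were found at 16 receptor genes or 1.02%, 1 ribosomal protein gene or 1.33%, and 0 *Hox* genes. A longer gene offers more room for an overlap, and gene length was not taken into account. These shares therefore do not show a preference for or against a class of genes. Of 36 protocadherins, *Pcdh15*, a cadherin of the hair cells of the ear, had a CpG-rich HND in an intron. This HND, chr10:72958551-72959045, was a member of family 3 with a ratio of 0.639 and 20 CpG in 495 bp. As background, imprinted genes are controlled by CpG-rich regions methylated in 1 parental germline, which need not lie at a gene start.

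Short motifs were searched on both strands. The core motif of the imprint factor ZFP57, TGCCGC, was found in 82 CpG-rich HNDs, or 33.6% (interval 28.0 to 39.7%), in 8.15% of the other HNDs, in 25.7% of 2511 CpG-rich random regions (interval 24.1 to 27.5%) and in 4.41% of 9463 random regions drawn once for each HND. Since the motif holds a CpG, the rule itself favours it. In families 1, 2 and 3 it was present in 29 of 38, 15 of 33 and 17 of 32 HNDs, so that 61 of the 82 were in these families.

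The E-box CACGTG, which also holds a CpG, was in 8.20% of CpG-rich HNDs, 8.20% of other HNDs and 11.4% of CpG-rich random regions. The telomere repeat unit TTAGGG was in 13 CpG-rich HNDs, or 5.33% (interval 3.14 to 8.90%), 24.4% of other HNDs and 14.9% of CpG-rich random regions. A G-quadruplex pattern, 4 runs of at least 3 G with loops of 1 to 7 bases, was in 11 CpG-rich HNDs, or 4.51% (interval 2.54 to 7.89%), 8.33% of other HNDs and 22.4% of CpG-rich random regions. CpG-rich HNDs were narrower than both groups, with the median widths given above, and their part in these differences was not tested. A match is a stretch of letters and not a bound site.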

How the data were processed

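ChIP-seq reads of 50 bp were mapped by the authors to mm9 with Bowtie2, reads without a single best place were dropped, and MACS2 in broad mode was run on H3K9me3 with input as control. The list comprises WT peaks that had no counterpart in KO cells. Tool versions and how replicates were joined are not given in the sources used here. The authors deposited the outcome as 1 list of 3 columns (chromosome, start, end), with 0 columns of single libraries and hence no depth.

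Base composition was computed from mm9 and gene overlap from GENCODE M1, with starts counted from 1. Copies of each 24- and 50-base word were found by exact matching to both strands of mm9. CpG-rich HNDs were compared with other HNDs of 200 bp or more on the same chromosome by exact two-sided sign-flip permutation over 19 chromosomes, with Benjamini-Hochberg adjustment over 5 tests, of which that of width is not reported because the rule uses the length. Random regions had no unknown bases. Copies of random regions came from 20 of the 1000 sets. The computations were tested on simulated data.

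The HNDs studied and the gene lists were chosen with earlier results of these data known. Named are the genes with a CpG-rich HND at a protein-coding promoter, list genes with one, and the highest, widest and borderline HNDs with the centre of each large family. Promoters of genes without a protein, the genes around them, list genes with only HNDs of lower ratio, smaller families and the genes whose sequences are printed were added after the values were seen. Alternatives were other ratios, widths, promoter sizes, copy numbers and word lengths, and leaving out each chromosome. Leaving out HNDs with little C or G, the ribosomal stretch of chromosome 17 or the 3 largest families, and keeping 200 to 500 bp only, were added after the data were seen. Repeat annotation was not used. Python 3.11.15, numpy 2.4.6, pandas 2.3.3, scipy 1.17.1, numba 0.67.0, networkx 3.6.1 and matplotlib 3.10.9 were used.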

Additional observations from a re-analysis of the deposited data

Results flagged for a closer look

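Chromosomes X and Y were outside the comparisons, and the same CpG rule also picked HNDs there. On chromosome X, 17 of 834 HNDs of 200 bp or more were CpG-rich, or 2.04% (95% Wilson interval 1.28 to 3.24%), against 0.807 ± 0.304% of random regions of the same widths (mean ± SD of 1000 sets). 1 of them lay at a promoter. On chromosome Y, 2 of 145 were CpG-rich, or 1.38% (interval 0.379 to 4.89%), against 2.54 ± 1.27% of random regions, and both lay at a promoter. No promoter share of other HNDs or random regions on X and Y is given here, so these promoter counts are a description only.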

How the results depend on the processing

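The number of CpG-rich HNDs was 537 at a ratio of 0.5, 96 at 0.75, 51 from 500 bp, 408 without a width limit, 147 with G+C of 50% or more, 9 with the strict island definition and 2134 by the best 200 bp window. Their share in percent, with random regions in brackets, was 5.67 (2.67) at 0.5, 1.74 (0.964) at 0.65, 1.01 (0.521) at 0.75, 1.02 (0.936) from 500 bp, 3.43 (2.08) without a limit and 1.55 (0.755) with G+C of 50%. The promoter difference in percentage points was 10.3 from 500 bp and 3.09 at 200 to 500 bp, both no longer past the threshold, and 13.1 without the 3 largest families. The gene difference was -5.32 without chromosome 12, then past the threshold, and 3.89 without the 3 largest families, of which 18 of 103 HNDs lay in a gene. The multi-copy difference was 6.81 and 2.94 at ratios of 0.65 and 0.75, -5.65 with 1000 copies and -3.04 without the 3 largest families, all of whose HNDs hold a multi-copy word, none of them past the threshold. It rose to 23.2 with 36-base words and to 18.9 at 200 to 500 bp. Leaving out these families was chosen after the data were seen and moves these values by construction. The cause of the other changes was not tested. The difference in unique words passed the test in the same direction under all 27 alternatives run for it. Of 157 alternatives over 8 results, 136 neither changed the call nor moved a share out of its interval or a count by over 1.5 times. This held for 94 of the 95 values without 1 chromosome. Both tallies include the width difference, whose 25 alternatives all kept the call, although width is given above as a description without a test. No paired analysis was possible because only pooled positions are listed, and leaving out a replicate could not be run for the same reason.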
